A study of Rattus norvegicus with 6 samples.

Results

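The translation initiation and elongation factors are the proteins that bring ribosomes to messenger RNA and move them along it. Their genes were taken from the deposited table as the protein-coding entries whose symbols begin with Eif1 to Eif6, Eef1 or Eef2, with the Eif2ak kinases left out. This rule found 60 genes among 22640 protein-coding entries and 37991 entries in all. RNA-seq measured them in Achilles tendons of male Sprague-Dawley rats, an outbred laboratory strain, which were 8 weeks old when the tendon was transected. The PM group inhaled fine particulate matter (PM2.5) 3 times a week for 6 weeks after the surgery, and the non-PM group was transected in the same way but not exposed. Each group had 3 samples of the healed tendon portion, taken whole, so that all cells of the repair tissue and of any attached tissue were sequenced together. The comparison asks how the expression of these genes differed in the healing tendon of exposed rats.

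Initiation begins when eIF2 carries the initiator tRNA to the small ribosomal subunit, and eIF2B recharges eIF2 with GTP after each round. The eIF3 complex and the eIF4F complex at the cap recruit the subunit to the messenger RNA, and eIF1, eIF1A and eIF5 control the choice of the start codon. During elongation, eEF1A delivers aminoacyl-tRNA, the eEF1B subunits recharge eEF1A, and eEF2 moves the ribosome on. Many of the elongation factor mRNAs, some eIF3 subunit mRNAs and the ribosomal protein mRNAs start with a tract of pyrimidines (a terminal oligopyrimidine, or TOP, tract), through which the kinase complex mTORC1 controls their translation. In healing tendon, fibroblasts use this machinery to make collagen and other matrix proteins.

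Start-site sequences of 9 of these genes are shown because a list of factors with TOP mRNAs (the TOP list) is compared with the other factors further on. For 4 factors of that list no start-site entry was found. They come from RefSeq on the GRCr8 build, read 5′ to 3′ on the strand of the gene, and cover the 20 bases before the annotated start and the first 20 bases from it. Capitals mark the longest unbroken run of C and T in each window. The first 5 are the factors of the TOP list for which a start-site entry was found. The next 3 are factors outside that list, with the 2 genes that had the smallest p-values among all factors. The last is the muscle form of eEF1A.
Eef1a1 (chr8:88225050-88225089, minus strand): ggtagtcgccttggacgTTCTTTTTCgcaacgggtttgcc
Eef1b2 (chr9:72074071-72074110, plus strand): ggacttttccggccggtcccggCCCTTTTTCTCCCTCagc
Eef1g (chr1:215289795-215289834, plus strand): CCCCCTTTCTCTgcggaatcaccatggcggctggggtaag
Eef2 (chr7:9189219-9189258, minus strand): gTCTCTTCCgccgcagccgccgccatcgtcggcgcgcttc
Eif3f (chr1:172369042-172369081, plus strand): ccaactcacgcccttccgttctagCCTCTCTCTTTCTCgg
Eif3k (chr1:93397468-93397507, minus strand): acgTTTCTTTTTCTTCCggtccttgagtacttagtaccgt
Eif2b3 (chr5:135728822-135728861, plus strand): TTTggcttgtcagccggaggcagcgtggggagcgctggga
Eif2s3 (chrX:62933680-62933719, minus strand): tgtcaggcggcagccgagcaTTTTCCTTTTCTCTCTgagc
Eef1a2 (chr3:188652614-188652653, minus strand): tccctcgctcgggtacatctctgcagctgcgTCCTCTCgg

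A run of 8 or more C and T letters on the strand of the gene lay within this window for all 5 TOP list factors shown. The run ended before the annotated start in Eef1g and Eef2, spanned it in Eef1a1 and lay after it in Eef1b2 and Eif3f. Such a run was found in 10 of the other 49 factors with an entry (20.4%) and in 14.7% of the windows of 16685 protein-coding genes. Eif3k and Eif2s3 are among those 10 factors, whereas the longest run of Eif2b3 was 3 letters and that of Eef1a2 was 7. Among cytosolic ribosomal protein genes, 45 of 66 had one (68.2%). The run length was set with these windows in view, and a match describes the letters of the annotated start only.

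The libraries held 46357986 to 62298837 counts. Levels are given as CPM, the counts of a gene relative to the library size after TMM scaling, which assumes that most genes do not differ between libraries, and levels of different genes are compared as FPKM, which is scaled by transcript length. Samples of both groups contained skeletal muscle RNA, with the 16 muscle markers at 2.73% to 7.41% of counts in the PM samples and 1.97% to 9.45% in the non-PM samples. The 3 fast fibre markers took 0.80% of counts in PM replicates 2 and 3 and at most 0.0060% in the other 4 samples. They are among the 16 muscle markers, whose mean log2 CPM is the muscle score used further on as a covariate. The score was 8.53, 11.6 and 10.7 in PM replicates 1 to 3 and 8.68, 7.88 and 10.1 in non-PM replicates 1 to 3. Unlike the share of counts, it placed PM replicates 2 and 3 above non-PM replicate 3, so it does not stand for that share. The 10 tendon fibroblast markers took 0.747% of counts in non-PM replicate 3 against 4.83% to 8.56% in the other 5. Non-PM replicate 3 therefore stood apart in its makeup, and its TMM factor was 0.791 against 0.965 to 1.16 in the others. In non-PM replicate 2 the 4 keratinocyte markers took 0.0285% of counts, against at most 0.00061% in the other 5. The part of the fibroblast and keratinocyte differences in the levels of the factors was not tested. For the factors described as high in non-PM replicate 3 alone, and for the median and the sum over all factors, values are given with and without this sample.

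Of the 60 factor genes, 59 passed the filter on low counts and were tested, and Eif4e1b, the oocyte form of the cap-binding protein, had no count in any sample. No factor passed an adjusted p of 0.05 in edgeR's quasi-likelihood test with Benjamini-Hochberg adjustment, the adjusted p-values running from 0.942 to 0.997, and 0% of all 18134 genes tested did so. At an unadjusted p under 0.05, edgeR called 2 factors and 537 genes (2.96% of all genes), and DESeq2 called 2 factors and 846 genes (3.33% of all genes) unadjusted, and no factor but 8 genes after adjustment. Under the relaxed criterion of the study, which asks for an unadjusted p below 0.05 and a change of 1.2-fold or more, 2 of the 59 factors were lower in the PM group, Eif2b3 and Eif3k. They are 3.39% of the factors, beside 1.49% of all genes tested. None was higher, beside 1.47% of all genes.

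Most factor genes lay on the lower side in the PM group. The log2 fold change of PM over non-PM was below 0 for 50 of the 59 factors (84.7%), beside 50.5% of all genes tested, and its median was -0.20 against -0.0040 over all genes. With library totals 44 of the 59 were below 0, and with limma on FPKM 42. The share of all genes below 0 is not given for these fits, and the 50.5% of the main fit does not stand for it. The standard error (SE) of single genes had a median of 0.20 and 26 factors had a log2 fold change smaller than its SE. In 13 factors every PM sample lay below every non-PM sample (22.0%), beside 4.91% of all genes. No factor had every PM sample above every non-PM sample, beside 4.77% of all genes, so that 22.0% of the factors against 9.68% of all genes had separate groups in either direction. The 13 were Eif2b1, Eif2b3, Eif3b, Eif3f, Eif3h, Eif3k, Eif3l, Eif4ebp3, Eef1d, Eef1g, Eef2, Eif5a and Eif1b. With RLE factors the counts were also 13 and 0, beside 5.17% and 4.34% of all genes. Only Eef1d, Eef1g, Eif2b3 and Eif3l of these kept their groups apart when levels were scaled by library totals or taken as FPKM. That is 4 of 59 factors (6.78%), beside 3.07% of all genes by library totals and 2.6% by FPKM. With these scalings Eif4e3 was the 1 factor with every PM sample above the non-PM samples, beside 2.88% and 3.89% of all genes. In bulk samples, fewer cells with a high level of a gene and less of its RNA per cell cannot be told apart.

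**Figure D1:**
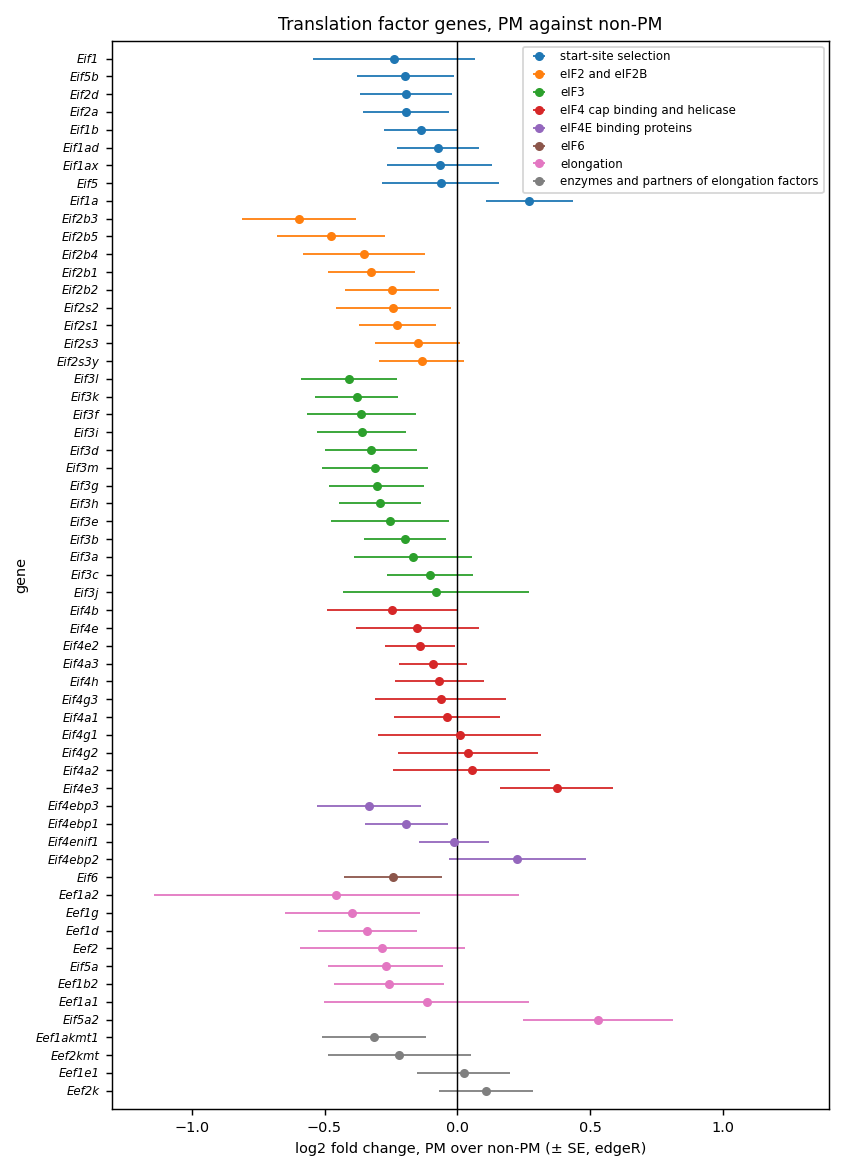
Log2 fold change of PM over non-PM for the 59 tested factor genes (points), with the SE of the edgeR fit (bars, n = 3 samples per group), coloured by role; the vertical line marks no difference. All 13 eIF3 genes (12 with library totals or FPKM) and all 9 eIF2 and eIF2B genes lie left of the line, and the eIF4 genes lie on both sides of it.

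The highest and lowest values fell mostly in a few samples. By TMM-scaled CPM, 39 of the 59 factors had their highest value in non-PM replicate 3 and 16 in non-PM replicate 2, while 30 had their lowest value in PM replicate 3. Non-PM replicate 1 and PM replicate 2 held the highest value of no factor, and PM replicates 1 and 3 that of 2 factors each. No such counts over all genes are given, so they cannot be read as particular to the factors. Without non-PM replicate 3 the median log2 fold change was -0.12, with 41 factors below 0 and 18 above. The median and the share below 0 over all genes are not given for that fit. By FPKM the sample with the most highest values was non-PM replicate 2, with 37 factors, and non-PM replicate 3 had 9. By library totals these counts were 41 and 7. The median log2 fold change was -0.12 with library totals, where that of all genes was 0.05. With limma on log2(FPKM + 0.1) it was -0.10, where that of all genes was 0.10.

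**Figure D2:**
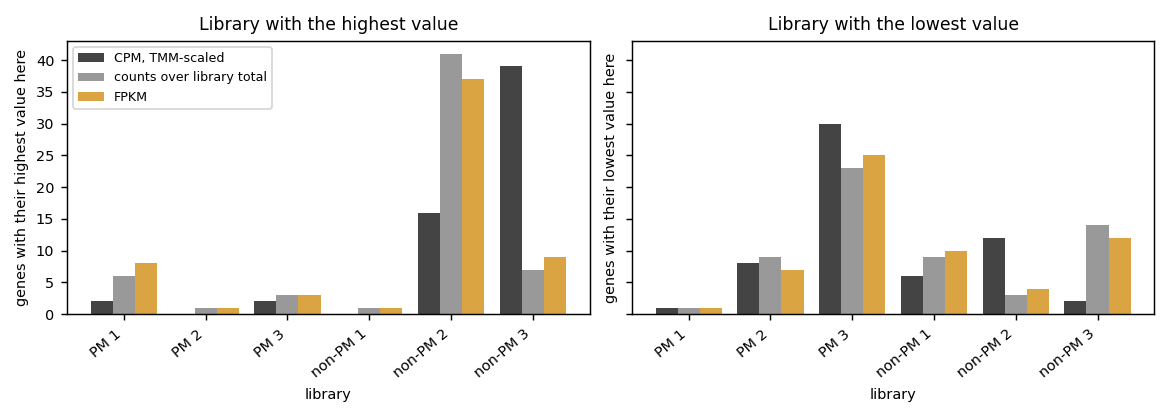
Number of the 59 tested factor genes whose highest (left) or lowest (right) value fell in each sample, for 3 scalings of the same libraries. The highest values fall mostly in non-PM replicate 3 with TMM scaling (39 genes) and in non-PM replicate 2 with the other scalings (41 and 37 genes), whereas PM replicate 3 holds the most lowest values with each scaling (30, 23 and 25 genes).

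The summed level of all factors was 12586, 11690 and 11300 CPM in PM replicates 1 to 3 and 12011, 13150 and 15182 CPM in non-PM replicates 1 to 3. PM replicate 1 lay above non-PM replicate 1, so the groups overlapped. The log2 difference was -0.18 (exact two-sided permutation test, p = 0.2, n = 3 per group, where 0.1 is the smallest p that 3 against 3 samples allow). It was -0.085 without non-PM replicate 3, -0.10 with library totals and -0.11 with summed FPKM. By role, the log2 difference of the summed level ran from -0.25 for eIF3 and for eIF2 with eIF2B to 0.044 for the enzymes and partners of elongation factors. Without non-PM replicate 3 it was -0.13 for eIF3 and -0.16 for eIF2 with eIF2B, and with summed FPKM it was -0.16 for the latter. None of the 8 role groups had an exact permutation p under 0.2 or an adjusted p under 0.533.

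**Figure D3:**
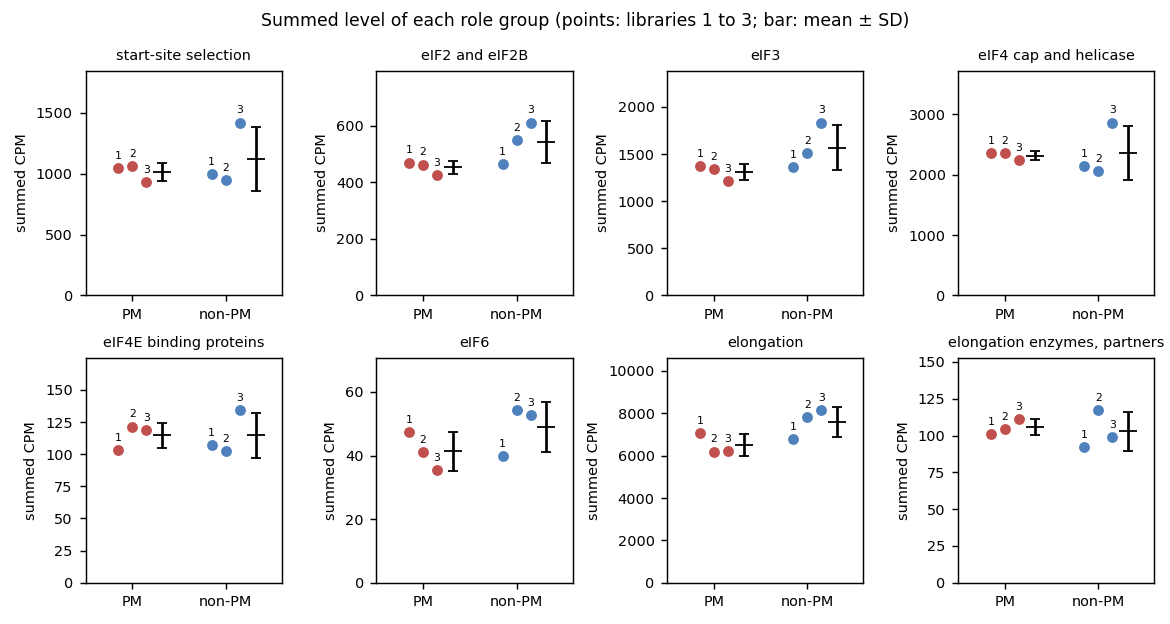
Summed CPM of the factor genes of each role in each sample (points numbered by replicate), with the mean and SD over 3 samples per group (bars); axes start at 0. Non-PM replicate 3 is the highest sample of the start-site, eIF2 and eIF2B, eIF3, eIF4, eIF4E binding protein and elongation groups, and the ranges of the groups overlap in all 8 panels.

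In the values that follow, replicates are given in the order 1 to 3, and fold changes are log2 values of PM over non-PM with their SE from the edgeR fit. Adjusted p-values are those of edgeR's quasi-likelihood test over all genes, and those not printed lay in the range given above.

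Among eIF2 and eIF2B, all 9 genes lay below 0 on the log2 scale, their median being -0.25, and 1 passed the relaxed criterion. Eif2b3 encodes the gamma subunit, which with the epsilon subunit forms the catalytic part of eIF2B. Eif2b3 (gene ID 171145) had 11.1, 12.9 and 12.0 CPM in the PM samples and 13.2, 19.9 and 21.3 CPM in the non-PM samples. The 3 PM samples lay below the non-PM samples, although PM replicate 2 and non-PM replicate 1 were close. Its log2 fold change was -0.60 ± 0.21 (adjusted p = 0.942). The call held without non-PM replicate 1 (-0.79) but was lost without any other single sample, where the log2 fold change ran from -0.65 to -0.48, and it was also lost with library totals (-0.53) and with FPKM (-0.47 with a pseudocount of 0.1). Eif2b5, the epsilon subunit that carries the exchange activity, had 43.1, 45.2 and 41.6 CPM in the PM samples and 44.7, 73.6 and 62.6 CPM in the non-PM samples. Non-PM replicate 1 fell within the PM range, and the log2 fold change was -0.48 ± 0.20.

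The other eIF2B subunits form the regulatory part that senses phosphorylated eIF2. The alpha subunit gene Eif2b1 had 30.0, 25.7 and 30.1 CPM in the PM samples and 31.2, 42.4 and 33.8 CPM in the non-PM samples, so the groups did not overlap, with a log2 fold change of -0.32 ± 0.17. Eif2b2, the beta subunit, had 23.0, 21.2 and 18.1 CPM in the PM samples and 20.3, 27.3 and 26.2 CPM in the non-PM samples, and the log2 fold change was -0.25 ± 0.18. Eif2b4, the delta subunit, had 30.3, 35.2 and 27.2 CPM in the PM samples and 30.7, 35.6 and 51.9 CPM in the non-PM samples, with a log2 fold change of -0.35 ± 0.23, or -0.12 without non-PM replicate 3. For both Eif2b2 and Eif2b4 non-PM replicate 1 lay inside the PM range. The 5 eIF2B genes thus had log2 fold changes from -0.60 to -0.25.

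The eIF2 subunits were expressed at higher levels than the eIF2B subunits, at 25.2 to 85.0 FPKM against 8.46 to 19.6 FPKM as means over all 6 samples. Eif2s1, the alpha subunit phosphorylated by the stress kinases, had 46.1, 40.6 and 40.3 CPM in the PM samples and 43.2, 54.7 and 50.7 CPM in the non-PM samples. Its groups overlapped through non-PM replicate 1, with a log2 fold change of -0.23 ± 0.15. Eif2s2, the beta subunit, had 134, 134 and 113 CPM in the PM samples and 133, 131 and 187 CPM in the non-PM samples, where non-PM replicate 3 alone was high, and the log2 fold change was -0.24 ± 0.21, or -0.066 without that sample. The tRNA-binding gamma subunit is encoded by the X-linked Eif2s3, whose start window is shown above, and by the closely related Y-linked Eif2s3y. Eif2s3 had 104, 100.1 and 98.8 CPM in the PM samples and 98.8, 121 and 117 CPM in the non-PM samples, with a log2 fold change of -0.15 ± 0.16. Eif2s3y had 48.2, 48.0 and 44.8 CPM in the PM samples and 49.7, 44.2 and 60.9 CPM in the non-PM samples, with a log2 fold change of -0.13 ± 0.16. The groups overlapped for both genes, and reads that match both copies could have been assigned to either.

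All 13 subunit genes of eIF3, the largest initiation factor and the platform that binds the small ribosomal subunit, had a log2 fold change below 0 with TMM factors, and 12 with library totals or FPKM, where Eif3j lay above. Their median was -0.30, with a range of -0.41 to -0.08, and 1 of the 13 passed the relaxed criterion. Without non-PM replicate 3 the median was -0.20 and 11 of the 13 lay below 0. Mean levels ran from 34.0 FPKM for Eif3b to 141 FPKM for Eif3f. In 5 subunits, Eif3b, Eif3f, Eif3h, Eif3k and Eif3l, the groups did not overlap, and Eif3l alone kept them apart with library totals and with FPKM.

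Eif3k and Eif3l encode a pair of core subunits that lie side by side in the complex. Eif3k (gene ID 292762), with a run of 14 C and T letters upstream of its annotated start, had 74.3, 72.7 and 60.0 CPM in the PM samples and 84.3, 93.5 and 91.5 CPM in the non-PM samples. Every PM sample lay below every non-PM sample, and the log2 fold change was -0.38 ± 0.15 (adjusted p = 0.942). The call was lost when any of the 6 samples was left out, with log2 fold changes from -0.43 to -0.29. Eif3l had 76.7, 77.3 and 59.8 CPM in the PM samples and 83.6, 93.3 and 107 CPM in the non-PM samples, again without overlap, with a log2 fold change of -0.41 ± 0.18.

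Eif3f and Eif3h encode the subunits with an MPN domain, and both genes are on the TOP list. Eif3f had 191, 187 and 150.0 CPM in the PM samples and 201, 223 and 254 CPM in the non-PM samples, with a log2 fold change of -0.36 ± 0.21. Eif3h had 71.9, 72.4 and 63.5 CPM in the PM samples and 74.9, 86.5 and 93.1 CPM in the non-PM samples, with a log2 fold change of -0.29 ± 0.15. The groups did not overlap for either gene, PM replicate 3 being the lowest sample and non-PM replicate 3 the highest in both. A near-identical annotated copy of Eif3h held 49.7% to 51.5% of their combined reads, so the level of Eif3h itself is uncertain.

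The remaining eIF3 genes had overlapping groups, except Eif3b. Eif3e, a core subunit on the TOP list, had 140.2, 127 and 122 CPM in the PM samples and 124, 147 and 194 CPM in the non-PM samples, with a log2 fold change of -0.25 ± 0.22. Eif3a, the largest subunit, had 204, 192 and 202 CPM in the PM samples and 185, 208 and 278 CPM in the non-PM samples, with a log2 fold change of -0.17 ± 0.22. In both, non-PM replicate 3 was the highest sample and non-PM replicate 1 the second lowest or the lowest. Without non-PM replicate 3 the log2 fold changes were -0.075 for Eif3e and 0.0066 for Eif3a. Annotated copies of Eif3e held 12.3% to 14.9% of the combined reads. Eif3j, a loosely bound subunit, had 80.5, 113 and 74.9 CPM in the PM samples and 74.1, 64.9 and 145 CPM in the non-PM samples, and both its highest and its lowest sample were in the non-PM group. Its log2 fold change of -0.08 ± 0.35 was smaller than its error. The 6 subunits not given by sample, Eif3b, Eif3c, Eif3d, Eif3g, Eif3i and Eif3m, had log2 fold changes from -0.36 to -0.10 and none passed the relaxed criterion.

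The eIF4 genes of cap binding and unwinding were on both sides of 0, with 4 of 11 tested genes above and 7 below (5 below with library totals and 4 with FPKM) and a median of -0.06. None passed the relaxed criterion, and in no eIF4 gene did the groups separate by TMM-scaled CPM. Eif4e, which binds the cap, had 69.8, 74.1 and 63.4 CPM in the PM samples and 62.9, 64.0 and 103 CPM in the non-PM samples. Only non-PM replicate 3 stood above the rest, and the log2 fold change was -0.15 ± 0.23, or 0.11 without it. Eif4e2, a cap-binding protein that represses translation, had 30.6, 27.5 and 25.4 CPM in the PM samples and 31.2, 29.2 and 31.7 CPM in the non-PM samples, with a log2 fold change of -0.14 ± 0.13.

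Eif4e3, another cap-binding form, had the highest log2 fold change of the eIF4 genes. It had 20.7, 23.9 and 25.3 CPM in the PM samples and 14.0, 17.2 and 22.8 CPM in the non-PM samples. Non-PM replicate 3 lay within the PM range and the other non-PM samples below it, with a log2 fold change of 0.37 ± 0.21. It was 0.57 when non-PM replicate 3 was left out and then passed the relaxed criterion, as it did with limma on log2(FPKM + 1), at 0.43, beside 1.48% and 0.968% of all genes higher in these fits, whereas it was 0.20 with the skeletal muscle score as a covariate. The FPKM of Eif4e3 over that of Eif4e was 0.313, 0.325 and 0.420 in the PM samples and 0.217, 0.273 and 0.225 in the non-PM samples, or 0.353 ± 0.059 against 0.238 ± 0.030 (mean ± SD, n = 3). The groups did not overlap in this ratio, which was chosen after the values were seen and was not tested. They overlapped in the other ratios formed in this way. These were Eif4a2 to Eif4a1, Eif5a2 to Eif5a, Eif4ebp2 to Eif4ebp1, Eif4g3 to Eif4g1 and Eef2k to Eef2.

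The eIF4G scaffold genes and the eIF4A helicase genes had overlapping groups. Eif4g1, the main scaffold, had 226, 299 and 271 CPM in the PM samples and 219, 197 and 376 CPM in the non-PM samples, with a log2 fold change of 0.01 ± 0.31. Eif4g3, its paralog, had 130.1, 145 and 137 CPM in the PM samples and 132, 108 and 189.8 CPM in the non-PM samples, with a log2 fold change of -0.06 ± 0.25. In both genes, and in Eif4a2, non-PM replicate 3 was the highest sample and non-PM replicate 2 the lowest. Annotated copies held 15.3% to 18.6% of the combined reads of Eif4g1. The pattern of non-PM replicates 3 and 2 occurred in 11 of the 59 factors by TMM-scaled CPM, in 3 by FPKM and in 2 by library totals, and its share over all genes is not given. Eif4g2 encodes DAP5, a scaffold without an eIF4E binding site, and had 853, 736 and 739.9 CPM in the PM samples and 697, 664 and 906 CPM in the non-PM samples. Its log2 fold change was 0.04 ± 0.26.

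Eif4a1 and Eif4a2 encode closely related forms of the helicase that unwinds the leader of the mRNA. Eif4a1 had 280.0, 237 and 251 CPM in the PM samples and 265, 287 and 237 CPM in the non-PM samples, with a log2 fold change of -0.04 ± 0.20. Eif4a2 had 279, 348 and 279.5 CPM in the PM samples and 259.6, 214 and 401 CPM in the non-PM samples, with a log2 fold change of 0.05 ± 0.29. Their mean levels were close, at 132 FPKM for Eif4a1 and 138 FPKM for Eif4a2. The Eif4a2 to Eif4a1 ratio of FPKM was 1.12 ± 0.23 in the PM group and 1.07 ± 0.46 in the non-PM group (mean ± SD, n = 3), with 0.700 in non-PM replicate 2 and 1.59 in non-PM replicate 3. Eif4a3, a helicase of the exon junction complex, varied little, with 59.6, 52.5 and 55.6 CPM in the PM samples and 58.8, 57.6 and 62.4 CPM in the non-PM samples. Its log2 fold change was -0.09 ± 0.13. Eif4b, which stimulates the helicase, had 229, 248 and 220.2 CPM in the PM samples and 236, 233 and 358 CPM in the non-PM samples. Here too non-PM replicate 3 stood alone above the others, with a log2 fold change of -0.25 ± 0.25, or -0.026 without it. Eif4h, the other helicase cofactor, was at -0.07.

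The eIF4E binding proteins block the assembly of eIF4F until mTORC1 phosphorylates them, and their genes lay on both sides of 0. Eif4ebp1 had 29.2, 35.1 and 28.3 CPM in the PM samples and 35.9, 31.0 and 38.9 CPM in the non-PM samples, with overlapping groups and a log2 fold change of -0.19 ± 0.16. Eif4ebp2 had 34.4, 47.8 and 51.9 CPM in the PM samples and 32.0, 31.5 and 51.2 CPM in the non-PM samples. Each group held both high and low samples, and the log2 fold change was 0.23 ± 0.26. Eif4ebp3 was the lowest of the 3 at 12.0 FPKM over all samples, with 8.12, 8.23 and 6.31 CPM in the PM samples and 8.50, 10.7 and 9.30 CPM in the non-PM samples. Its groups did not overlap by TMM-scaled CPM, with a log2 fold change of -0.33 ± 0.19. Eif4enif1, the eIF4E transporter counted with them, had a log2 fold change of -0.01. Eif6, which keeps the large ribosomal subunit from joining too early, had 47.5, 41.3 and 35.3 CPM in the PM samples and 39.9, 54.4 and 52.6 CPM in the non-PM samples. Non-PM replicate 1 lay inside the PM range, and the log2 fold change was -0.24 ± 0.18.

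Of the 9 genes for start-site selection and subunit joining, 8 lay below 0 and 1 above (6 below 0 with library totals and 5 with FPKM), with a median of -0.14 and none past the relaxed criterion. Eif1, which keeps the scanning ribosome open, was the most highly expressed initiation factor, at 381 FPKM over all samples. It had 443, 484 and 361 CPM in the PM samples and 437, 391 and 691 CPM in the non-PM samples. The other 5 samples lay well below non-PM replicate 3, and the log2 fold change was -0.24 ± 0.30, or 0.039 without it. Eif5, which triggers GTP hydrolysis by eIF2 at the start codon, had 209, 206 and 200.2 CPM in the PM samples and 193, 181 and 267 CPM in the non-PM samples, with the same single high sample and a log2 fold change of -0.06 ± 0.22, or 0.12 without it. An annotated copy held 2.91% to 3.76% of the combined reads of Eif5. Eif1a was the exception in direction, with 68.2, 50.7 and 63.8 CPM in the PM samples and 49.8, 55.0 and 46.7 CPM in the non-PM samples. PM replicate 2 fell among the non-PM samples, and the log2 fold change was 0.27 ± 0.16, or 0.43 and past the relaxed criterion with the muscle score as a covariate, a fit in which 4.64% of all genes were higher by it. The 6 genes not given by sample, Eif1ad, Eif1ax, Eif1b, Eif2a, Eif2d and Eif5b, ranged from -0.20 to -0.07.

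**Figure D4:**
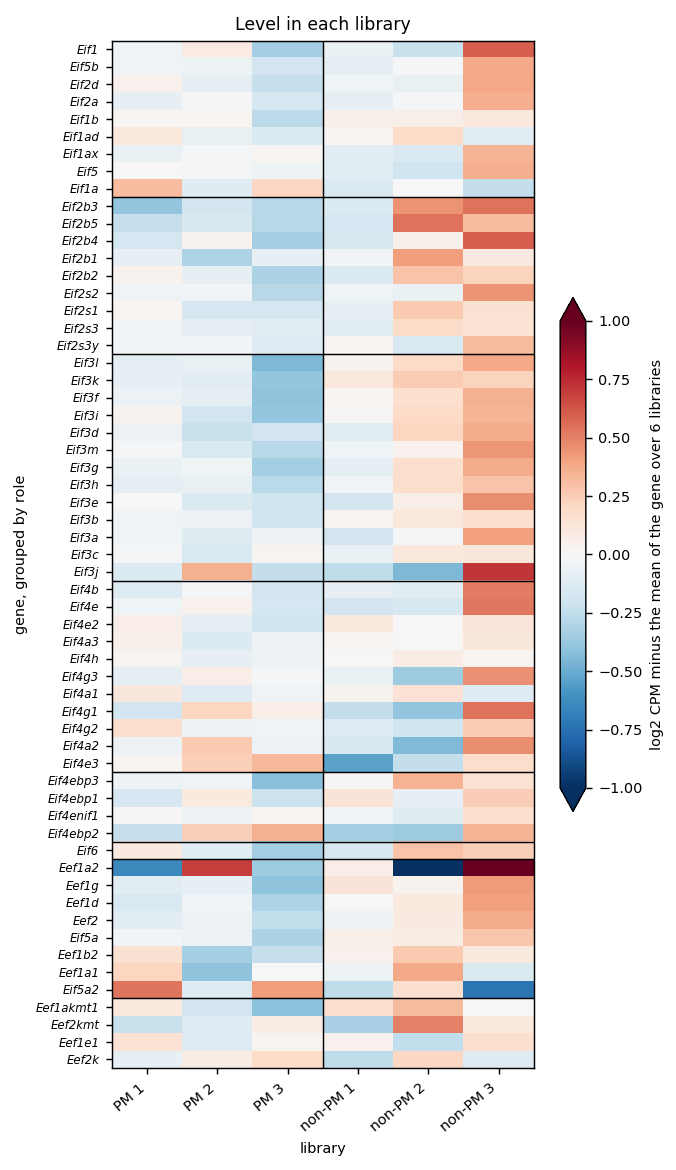
Level of each tested factor gene in each sample as log2 CPM minus the mean of the gene over 6 samples (colour, cut at -1 and 1), with genes grouped by role and a vertical line between PM and non-PM samples. Non-PM replicate 3 is above the mean in most genes and PM replicate 3 below it, at a median of 0.31 and -0.19, while the other samples have medians of -0.08 to 0.06.

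The most abundant genes of the set were the elongation factor genes Eef1a1, Eef2 and Eef1g. The other elongation factor genes lay below Eif1 (381 FPKM), down to 3.62 FPKM for Eif5a2. Eef1a1 was at 1752 FPKM, Eef2 at 571 FPKM and Eef1g at 396 FPKM over all samples, against a median of 34.6 FPKM over the 60 factors. Of the 8 elongation genes, 7 lay below 0 and Eif5a2 above, with a median of -0.28 and none past the relaxed criterion.

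Eef1a1 encodes the form of eEF1A found in most cells, and Eef1a2 the form that replaces it in mature skeletal muscle, heart and neurons. Eef1a1 (gene ID 171361) had 2115, 1256 and 1782 FPKM in the PM samples and 1642, 2494 and 1222 FPKM in the non-PM samples. Its log2 fold change by counts was -0.12 ± 0.39 (adjusted p = 0.969), and the groups overlapped. As a share of library counts it took 0.407%, 0.241% and 0.347% in the PM samples and 0.322%, 0.487% and 0.235% in the non-PM samples (exact two-sided permutation test, p = 1, n = 3 per group). The 95% Wilson interval was at most 0.0040 percentage points wide, so the spread between samples was far larger than the counting error, which is all that the interval covers. Annotated near-identical copies held 23.1% to 29.3% of the combined reads of Eef1a1 and its copies, which makes the level of Eef1a1 itself uncertain.

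Eef1a2 (gene ID 24799) was the most variable factor, with 138, 308 and 162 FPKM in the PM samples and 211, 103 and 425 FPKM in the non-PM samples. The highest sample was 5.95 times the lowest in CPM, against a median ratio of 1.54 over the 59 factors. Both extremes were non-PM samples, and the log2 fold change was -0.46 ± 0.69 (adjusted p = 0.942). The samples ranked by Eef1a2 nearly as they ranked by their share of skeletal muscle markers, from non-PM replicate 2 (1.97% muscle markers) and PM replicate 1 (2.73%) to PM replicate 2 (7.41%) and non-PM replicate 3 (9.45%). Only PM replicate 3 (4.29%) and non-PM replicate 1 (3.98%) changed places. By its share of counts, Eef1a1 ran through the same samples in exactly the opposite order to Eef1a2. With the muscle score as a covariate the log2 fold change was -1.09 for Eef1a2 and 0.15 for Eef1a1, and without non-PM replicate 3 that of Eef1a2 was 0.43. The score ranked PM replicates 2 and 3 above non-PM replicate 3, so these values are not adjusted for the share of muscle markers. The Eef1a2 to Eef1a1 ratio of FPKM was 0.0654, 0.245 and 0.0908 in the PM samples and 0.128, 0.0411 and 0.347 in the non-PM samples. The groups overlapped in full (exact two-sided permutation test, p = 1, n = 3 per group).

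**Figure D5:**
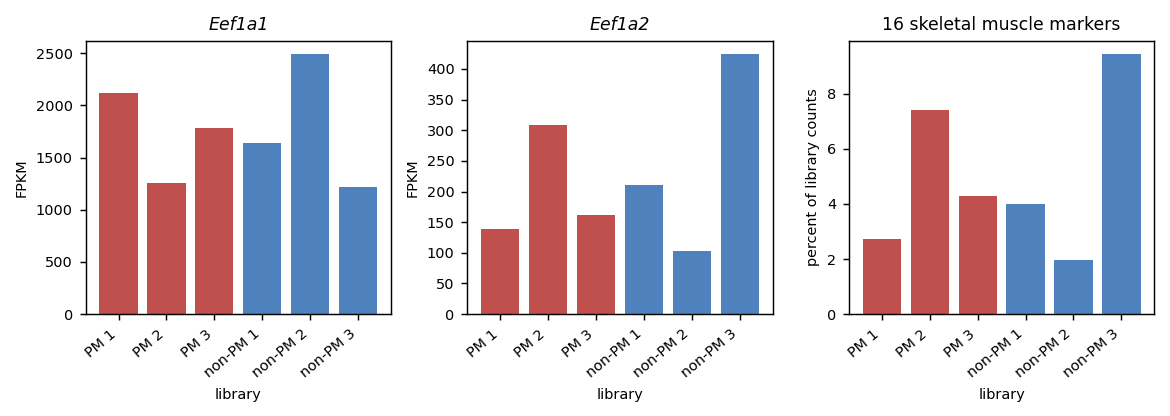
FPKM of Eef1a1 (left) and Eef1a2 (middle) and the percent of library counts from 16 skeletal muscle markers (right) in each sample, PM in red and non-PM in blue, 1 bar per sample. The samples with the most muscle markers, non-PM replicate 3 (9.45%) and PM replicate 2 (7.41%), have the highest Eef1a2 and the lowest Eef1a1.

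The subunits of eEF1B, which recharge eEF1A with GTP, were all on the lower side in the PM group. Eef1g, the structural subunit, had 574, 583 and 467 CPM in the PM samples and 675, 632 and 830.4 CPM in the non-PM samples. Eef1d, an exchange subunit, had 101, 109 and 90.4 CPM in the PM samples and 112, 119.7 and 148 CPM in the non-PM samples. In both genes the 3 PM samples lay below the 3 non-PM samples, and this separation was also present with library totals and with FPKM. The log2 fold changes were -0.40 ± 0.25 for Eef1g and -0.34 ± 0.19 for Eef1d. Eef1b2, the other exchange subunit, had 180.2, 129 and 138 CPM in the PM samples and 167, 194 and 174 CPM in the non-PM samples, where PM replicate 1 lay among the non-PM samples. Its log2 fold change was -0.26 ± 0.21.

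Eef2, the translocase, had 1729, 1793 and 1568 CPM in the PM samples and 1802, 1983 and 2404 CPM in the non-PM samples. The groups did not overlap by TMM-scaled CPM, although PM replicate 2 and non-PM replicate 1 were nearly equal, and the log2 fold change was -0.28 ± 0.31. Eif5a, which helps the ribosome past proline stretches and is activated by hypusine, had 359, 352 and 294 CPM in the PM samples and 382, 387 and 444 CPM in the non-PM samples. It too had no overlap, with a log2 fold change of -0.27 ± 0.22. Its paralog Eif5a2 was expressed at 3.62 FPKM, against 263 FPKM for Eif5a, and had the highest log2 fold change of all factors, 0.53 ± 0.28 (adjusted p = 0.942). Eif5a2 had 26.7, 16.9 and 24.6 CPM in the PM samples and 15.5, 20.7 and 11.1 CPM in the non-PM samples. PM replicate 2 lay between the non-PM samples and non-PM replicate 3 was the lowest. The log2 fold change was 0.78 without non-PM replicate 2 and 0.91 with the muscle score as a covariate, both past the relaxed criterion. In these fits 3.13% and 4.64% of all genes were higher by that criterion, against 1.47% with all samples and no covariate.

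The enzymes and partners of elongation factors were expressed at low to moderate levels, from 2.60 to 27.5 FPKM. Eef2k, the kinase that inactivates eEF2, had 70.8, 78.7 and 84.9 CPM in the PM samples and 62.7, 86.3 and 68.6 CPM in the non-PM samples, with a log2 fold change of 0.11 ± 0.18. Eef1akmt1, a lysine methyltransferase of eEF1A, had 11.5, 9.36 and 8.05 CPM in the PM samples and 12.0, 13.3 and 10.7 CPM in the non-PM samples, with a log2 fold change of -0.31 ± 0.20. The groups overlapped for both. Eef1e1, a partner in the multisynthetase complex, and Eef2kmt, a methyltransferase of eEF2, were at 0.02 and -0.22.

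All 9 factors of the TOP list, Eef1a1, Eef1b2, Eef1d, Eef1g, Eef2, Eif3e, Eif3f, Eif3h and Eif4b, had negative log2 fold changes. Their median was -0.28 with a range of -0.40 to -0.12, and none passed the relaxed criterion. The other 50 tested factors had 41 below 0 and a median of -0.18, and the difference between these lists was not tested. Some of these other factors, Eif3k and Eif2s3 among them, also had a run of 8 or more C and T letters at the start. The lists therefore do not divide the factors by such a run. Without non-PM replicate 3 the TOP list had a median of -0.24, with all 9 still below 0, and with library totals the median was -0.21. With the muscle score as a covariate 8 of the 9 were below 0, Eef1a1 being at 0.15. Other mRNAs with a TOP tract were on the same side, with 9 of 9 below 0 and a median of -0.26. Rack1, a protein of the small ribosomal subunit, had 509.9, 464 and 405 CPM in the PM samples and 544, 643 and 579.5 CPM in the non-PM samples. Fau, the precursor of ribosomal protein eS30, had 293, 263 and 237 CPM in the PM samples and 317, 394 and 349 CPM in the non-PM samples. The groups did not overlap in either gene, and the log2 fold changes were -0.36 ± 0.23 and -0.42 ± 0.21. Btf3, a subunit of the nascent polypeptide complex, was at -0.26 ± 0.20. Of the 86 tested cytosolic ribosomal protein genes, 82 were below 0, with a median of -0.35, and 3 were lower by the relaxed criterion, Rpl8 (-0.40 ± 0.12), Rpl38 (-0.76 ± 0.26) and Rpl36 (-0.47 ± 0.17). Over all genes tested, 50.5% were below 0 and 1.49% were lower by that criterion. The 86 include 2 entries with the symbol Rps19 and nearly the same counts, and with that symbol counted once, a count added after seeing the data, 81 of 85 were below 0. Ribosomal protein genes have many processed copies, so their single levels are uncertain.

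The kinases and targets of the eIF2 stress pathway, the integrated stress response, were evenly divided, with 10 of 19 tested genes above 0 and 9 below, a median of 0.06 and none past the relaxed criterion. For the kinases that phosphorylate eIF2, the log2 fold changes were 0.13 ± 0.15 for Eif2ak1, 0.12 ± 0.15 for Eif2ak2, 0.37 ± 0.35 for Eif2ak3 and 0.11 ± 0.21 for Eif2ak4. Atf4, the transcription factor translated when eIF2 is phosphorylated, had 325, 334 and 246 CPM in the PM samples and 330.1, 269 and 487 CPM in the non-PM samples, with a log2 fold change of -0.26 ± 0.30. Its target Ddit3 had 33.1, 52.7 and 20.2 CPM in the PM samples and 36.9, 26.2 and 92.2 CPM in the non-PM samples, with non-PM replicate 3 highest and PM replicate 3 lowest as for Atf4, and a log2 fold change of -0.55 ± 0.54. The targets with the smallest p-values were set by single samples. Chac1, which degrades glutathione, had 6.10, 4.11 and 4.19 CPM in the PM samples and 8.33, 73.6 and 1.55 CPM in the non-PM samples, and Slc7a11, a cystine transporter, had 0.469, 0.8 and 1.37 CPM in the PM samples and 2.06, 12.9 and 0.421 CPM in the non-PM samples. Non-PM replicate 2 alone was high in both, at log2 fold changes of -2.53 ± 1.23 and -2.55 ± 1.16. Atf3, an early stress factor, was at -1.25 ± 0.95 with 493 CPM in non-PM replicate 3 and 46.4 to 144 CPM elsewhere.

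Of 21 tested genes of the mTORC1 pathway, 16 were below 0 and 5 above, with a median of -0.13. A single gene, Deptor, passed the relaxed criterion, as higher in the PM group, beside 1.47% of all genes tested. Deptor, an inhibitor of mTOR, had 86.2, 94.6 and 108 CPM in the PM samples and 61.2, 81.3 and 64.2 CPM in the non-PM samples. The PM samples lay above the non-PM samples, with a log2 fold change of 0.49 ± 0.18 (adjusted p = 0.942). Ddit4 encodes REDD1, which inhibits mTORC1 under stress, and had 55.9, 53.5 and 94.4 CPM in the PM samples and 104, 129 and 88.5 CPM in the non-PM samples. PM replicate 3 overlapped the non-PM range, and the log2 fold change was -0.65 ± 0.28. Rps6kb2, a ribosomal protein S6 kinase, was at -0.31 ± 0.17. Mtor itself had 50.2, 62.8 and 57.9 CPM in the PM samples and 60.3, 45.0 and 90.5 CPM in the non-PM samples, with a log2 fold change of -0.20 ± 0.27.

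None of the remaining lists had a gene past the relaxed criterion. Termination and recycling factors had 7 of 10 genes below 0 and a median of -0.09, with the smallest p for Gtpbp1, a ribosome-associated GTPase, at -0.36 ± 0.17, followed by Denr at -0.26 ± 0.17 and Hbs1l at -0.32 ± 0.28. Among partners that bind mRNA with the factors, 11 of 16 were below 0, with a median of -0.05. Pabpc1, the poly(A)-binding protein that joins eIF4G at the cap, had 394, 264 and 315 CPM in the PM samples and 326, 465 and 224 CPM in the non-PM samples, with a log2 fold change of -0.06 ± 0.33. Cyfip1 (0.31 ± 0.21), Ncbp2 (0.32 ± 0.23) and Pabpc4 (-0.60 ± 0.55) had the smallest p-values of that list. Mitochondrial translation factors had 9 of 10 genes below 0 and a median of -0.21, with Tufm, the mitochondrial counterpart of eEF1A, at -0.36 ± 0.37, Tsfm at -0.30 ± 0.31 and Gfm2 at -0.24 ± 0.26. The enzymes that modify eIF5A with hypusine and eEF2 with diphthamide had 7 of 8 tested genes below 0 and a median of -0.23. Dhps, which makes the first step of hypusine, was at -0.50 ± 0.26, Dohh, which makes the second, at -0.29 ± 0.19 and Dph3 at -0.27 ± 0.20.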

How the data were processed

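RNA was sequenced as read pairs from poly(A) libraries of 3 PM and 3 non-PM tendons, matched to the deposited columns by group and number. The labels name no animal for a sample, and p-values therefore cover only the variation among the samples, part of which may be technical. The authors trimmed and aligned the reads (FastQC 0.11.7, Trimmomatic 0.38 and HISAT2 2.1.0 to Rnor_6.0, per the submitters' processing notes) and assembled transcripts with StringTie. The deposited counts are whole numbers per gene, whose derivation (strand, reads with several matches) is not given in the sources used. The deposited FPKM values were computed by the authors from transcript length and depth.

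The test on counts was that of edgeR 4.0.16 in R 4.3.3 (filterByExpr on group, TMM factors, two-sided quasi-likelihood test, Benjamini-Hochberg adjustment over 18134 genes), tested first on simulated data. Each SE was obtained by dividing the log2 fold change, without its sign, by the square root of F. Sums, shares and ratios were compared over samples by exact permutation tests. Alternatives were DESeq2 1.42.0, limma 3.58.1 on log2 FPKM, other scalings, no low-count filter, a skeletal muscle score (mean log2 CPM of 16 markers) as a covariate, a replicate block and each sample left out. Per-sample values are printed for 43 factors named by rule: those past the relaxed criterion, a list of main subunits, and the highest and lowest of each role. Of each pathway list the 3 smallest p-values and 8 fixed genes are named. The factors, lists and rule were chosen with earlier results of these data known. Sequences are from RefSeq (GRCr8), for 54 of the 60 factors. No start-site entry was found for Eef1d, Eif3e, Eif3h, Eif4b, Eif4e3 and Eif4ebp1.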

Additional observations from a re-analysis of the deposited data

How the results depend on the processing

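No factor passed an adjusted p of 0.05 under any of the 16 other fits of the whole table, and the median log2 fold change of the factors stayed below 0 in all of them, between -0.29 (without non-PM replicate 1) and -0.09 (limma on log2(FPKM + 1)). Of the 59 factors, 40 kept the sign of their log2 fold change throughout, 36 of them below 0, and 19 changed it at least once. The number of factors lower by the relaxed criterion, 2, was 0 with library totals, with each limma fit and with the replicate block, 1 without a filter on low counts, 1 with the muscle covariate and 3 with RLE factors. Of all genes, 1.49% were lower in the main edgeR fit, 0.838% with library totals, 0.454% to 0.693% with limma and 0.436% with the replicate block. That share was 1.56% without the filter and 1.64% with RLE factors. The number higher, 0, was 1 with each limma fit (Eif4e3, where at most 0.985% of all genes were higher) and 2 with the muscle covariate, where 4.64% of all genes were higher and 3.37% lower. Leaving out single samples gave 0 to 3 lower and 0 to 1 higher, while 0.515% to 3.38% of all genes were lower and 0.59% to 3.13% higher. The replicate numbers did not pair the samples: deviations of samples with the same number correlated at -0.17, -0.39 and -0.31. The replicate block left 155 genes at an unadjusted p under 0.05 against 537. It gave the summed level of all factors a log2 difference of -0.18 (exact sign-flip test over 3 pairs, p = 0.5). With 3 pairs this test cannot give a p under 0.05, whatever the values.

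Some small differences changed sign. For the summed eIF4 genes the log2 difference of -0.0092 was 0.063 with library totals, 0.075 with summed FPKM and -0.10 to 0.14 with a sample left out. For the summed eIF4E binding proteins, 0.0053 was -0.013 with RLE factors, -0.0021 with summed FPKM and -0.073 to 0.13 with a sample left out. Leaving out samples moved the enzymes and partners between -0.032 and 0.14 and the start-site genes between -0.23 and 0.059. It moved the Eef1a2 to Eef1a1 log2 ratio difference between -0.90 and 0.64, and the difference in the Eef1a1 share between -0.073 and 0.053 percentage points, which was 0.0021 as a share of summed FPKM.

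The 19 genes that changed sign include 6 not given by sample, Eif4enif1 (in 7 of the 16 fits), Eif1ad (5), Eif1ax (5), Eif4h (3), Eef1e1 (2) and Eef2kmt (1). The 13 given by sample changed sign as follows. With library totals, Eif3j was at 0.045, Eif4a1 at 0.0028, Eif4g3 at 0.043 and Eif5 at 0.031. With limma on log2(FPKM + 1), with or without a filter, they were at 0.080, 0.053, 0.087 and 0.051, and with a pseudocount of 0.1 at 0.082, 0.054, 0.091 and 0.051. Eif4g1 was at -0.013 with DESeq2, -0.019 with RLE factors and -0.021 with the reads of annotated copies added, an alternative chosen after seeing the data, as was the count of separated groups under other scalings. With the muscle covariate, Eif4a1 was at 0.092, Eif4a2 at -0.18, Eif4g1 at -0.28, Eif4ebp2 at -0.087 and Eef1a1 at 0.15. With single samples left out, the ranges were -0.26 to 0.062 for Eef1a1, -0.96 to 0.43 for Eef1a2, -0.39 to 0.039 for Eif1, -0.30 to 0.0066 for Eif3a, -0.29 to 0.35 for Eif3j, -0.12 to 0.029 for Eif4a1, -0.13 to 0.34 for Eif4a2, -0.29 to 0.11 for Eif4e, -0.16 to 0.34 for Eif4g1, -0.044 to 0.18 for Eif4g2, -0.23 to 0.18 for Eif4g3 and -0.17 to 0.12 for Eif5. The cause was not tested. With 3 samples per group and a median SE of 0.20 for single factors, most log2 differences of the size seen here could not be told from 0.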
